A study of Rattus norvegicus with 12 samples.

Results

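Genes of the VEGF and angiopoietin systems were followed in the rat retina: Vegfa (ENSRNOG00000019598), Kdr (ENSRNOG00000046829), Flt1 (ENSRNOG00000000940), Angpt2 (ENSRNOG00000016696), Tek (ENSRNOG00000008587) and Adm (ENSRNOG00000027030). They were taken by their Ensembl identifiers as a set chosen for function, without a threshold on any measured value, and 6 of 6 were found among the 32883 genes of the expression table. The choice was made with earlier results of these data known. The samples were retinas taken on postnatal day 18 from Sprague Dawley rats of wild type genotype. The 4 groups of 3 libraries were sham with scrambled RNA, sham with miR-143 mimic, oxygen-induced retinopathy (OIR) with scrambled RNA, and OIR with miR-143 mimic. In OIR, newborn rodents are exposed to altered oxygen, which disturbs their growing retinal vessels and is followed by abnormal vessel growth. The mimic is a synthetic RNA that stands in for the microRNA miR-143, and scrambled RNA was its control, so every group carried one of these RNAs and no group was without one. These RNAs are called injections below as a short name only, since the labels do not state a route. What the sham handling consisted of, the oxygen schedule, the route of delivery, and whether each library came from its own animal are not stated in the labels, so the p-values measure only the spread between these libraries, which may be technical.

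Vascular endothelial growth factor A, encoded by Vegfa, is a secreted ligand that oxygen-starved cells release and that drives endothelial cells to sprout. Its main signalling receptor is VEGFR2, encoded by Kdr, while VEGFR1, encoded by Flt1, binds the ligand tightly and limits how much of it reaches VEGFR2. Angiopoietin-2, encoded by Angpt2, acts on the endothelial receptor TIE2, encoded by Tek, and loosens vessels for remodelling. Adrenomedullin, encoded by Adm, is a vasodilator peptide with actions on endothelial cells, and Adm and Vegfa are known targets of the hypoxia-inducible factors. In the retina, glial cells are a known source of VEGF-A, and the receptors lie mainly on endothelial cells, with Kdr also reported in neural cells.

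The stretch just before the start site is shown for Vegfa and the VEGF receptors, because the promoter is where hypoxia and general transcription factors are known to act. The sequences come from RefSeq (build GRCr8) and are plus strand, 5′ to 3′. Positions are counted from a RefSeq start of each gene. For Kdr and Flt1 this start lies inside the annotated gene, which begins at chr14:32572031 for Kdr and chr12:12333050 for Flt1. The first Vegfa start has this window of 250 bases at chr9:22452604-22452853, with the GC box GGGCGG in capitals.
Vegfa: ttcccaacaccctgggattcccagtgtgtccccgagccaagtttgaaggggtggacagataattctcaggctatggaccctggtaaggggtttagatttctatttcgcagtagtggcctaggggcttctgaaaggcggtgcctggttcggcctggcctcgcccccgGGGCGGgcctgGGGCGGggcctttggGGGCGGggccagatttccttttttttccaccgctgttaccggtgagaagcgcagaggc
Its GC content was 60.4%, and the 3 GC boxes began at -84, -73 and -58 counted from the start. For Kdr and Flt1, 30 bases around a match are shown, with the match in capitals. The first matches are GCGTG, one form of the core that hypoxia-inducible factors bind, at -145 and -103 of Kdr (chr14:32571906-32571935 and chr14:32571948-32571977). The last is the same core on the opposite strand at -227 of Flt1 (chr12:12333191-12333220).
Kdr, first: gtgggggagtggGCGTGggaaaccgggaaa
Kdr, next: atccagcgagggGCGTGgccggacgcaggg
Flt1: ctagcgccaccgCACGCgcgctccggcccc
Both strands were searched for the GC box GGGCGG, for the core as ACGTG or as GCGTG, and for the TATA box TATAAA. The Flt1 window held 3 GC boxes, at -201, -185 and -63, and the Kdr window held 1, at -59, all on the opposite strand. GC content was 73.2% for the Flt1 window and 61.6% for the Kdr window. The TATA box was found only in the Flt1 window of these 3 genes, and no match overlapped another. Of 33469 RefSeq windows of the same length, 30.5% held the GC box, 36.7% held either form of the core, and 12.9% held the TATA box. Neither form of the core was among the letters of the Vegfa window, which says only that they are not in these 250 bases. A second RefSeq start of Vegfa had 0 of the 4 motifs in its window. A match is a description of letters and not a measured binding site.

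Levels are given in TPM (transcript abundance as a share of the library), a unit scaled by gene length and by library, so that genes can be set side by side. Reads assigned to genes were recovered from the TPM steps and numbered 10537594 to 13175005 per library. All 6 genes passed the filter of at least 1 TPM in at least 3 of the 12 libraries, as did 15916 genes of the table. The 12 pairs of libraries within a group differed by 4.67 to 22.6 times counting noise (chi-square per degree of freedom of the recovered reads), so none of these pairs was identical within counting noise. The largest values, 22.6 and 21.4, were those of OIR scrambled replicate 3 against replicates 1 and 2 of its group, which differed from each other by 4.89. Whether they are separate animals is not settled by this. A single number is shared by the column names of sham scrambled replicate 1 and sham mimic replicate 1, called the same-number sham libraries here, and its meaning is not stated. All mimic columns have the letter L, all scrambled columns have R, and the numbers of sham columns never mix with those of OIR columns, so what these mark cannot be told apart from the groups. For OIR scrambled replicate 3 and for OIR mimic replicate 1, the untagged libraries, the group was read from the title because the condition tags are missing. The names of their columns give the same groups.

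Vegfa was the most abundant of the 6 genes and Kdr the next, with means over the 12 libraries of 284 and 183 TPM. The others lay far lower, with Angpt2 at 14.5, Adm at 14.2, Flt1 at 12.5 and Tek at 7.76 TPM. By mean TPM, Vegfa stood at place 495 and Kdr at place 903 among the tested genes, and Tek at place 11004. The means of Angpt2, Adm and Flt1 are close together, and their order changes with the condition: Adm was the lowest of the 6 in sham and the third in OIR. Reads behind one value ranged from 3393 to 9256 for Vegfa and from 5641 to 7949 for Kdr. They ranged from 373 to 614 for Flt1, 135 to 364 for Angpt2, 161 to 235 for Tek, and for Adm from 21 to 36 in sham and 148 to 238 in OIR.

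**Figure D1:**
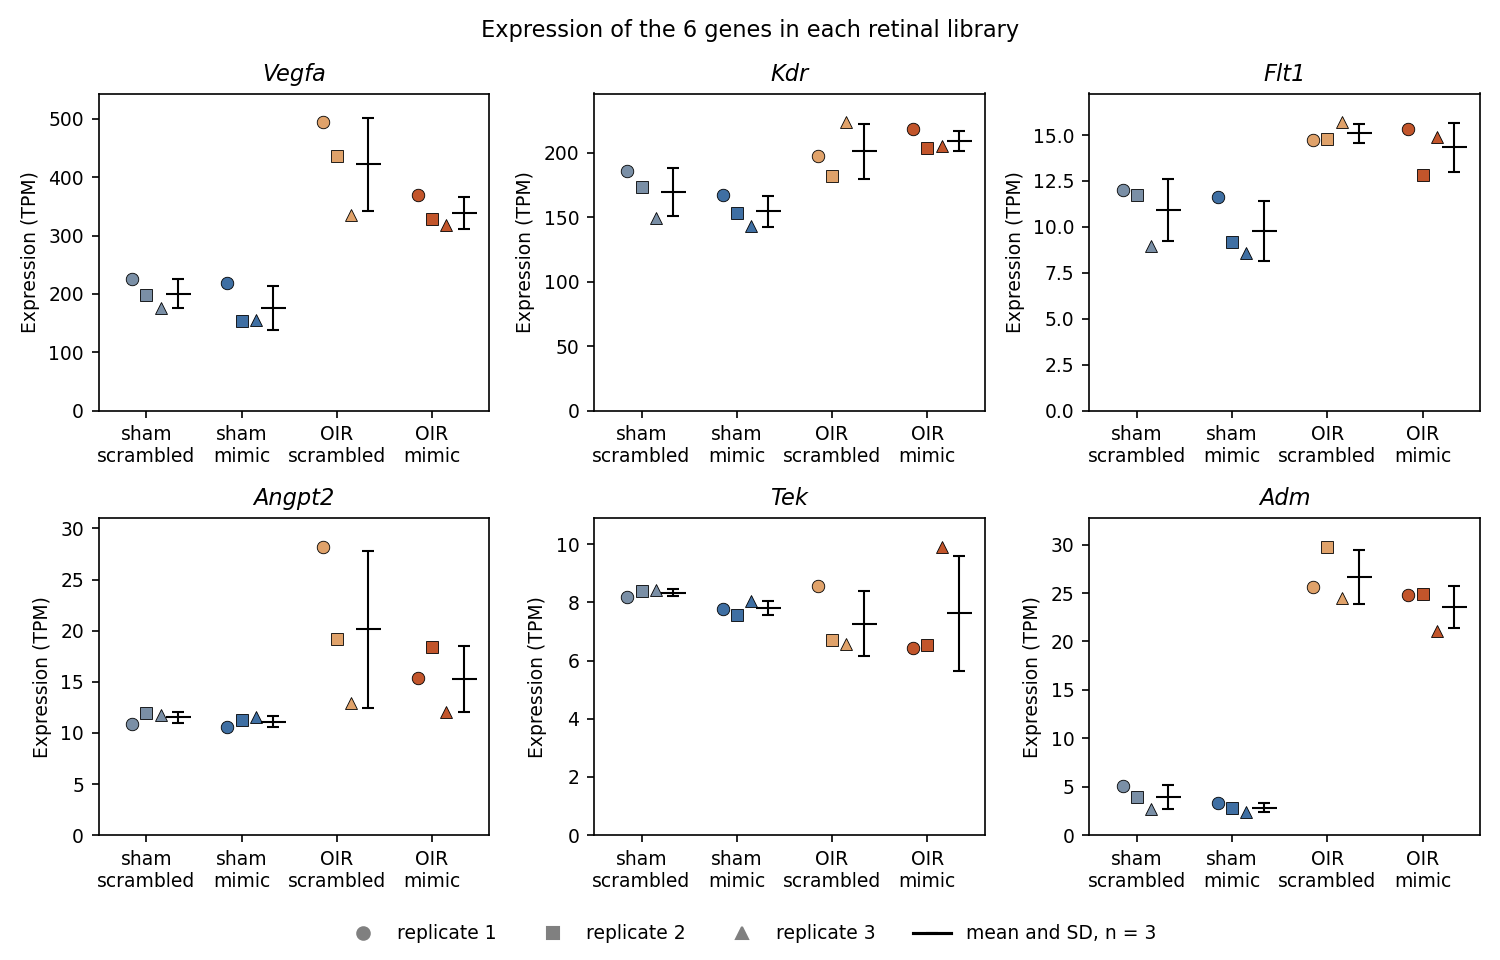
TPM of the 6 genes in each library (vertical axis from 0, separate for each gene) by group (horizontal axis), with bars for the mean and SD of 3 libraries. OIR libraries lie above all sham libraries for Vegfa, Flt1, Angpt2 and Adm, and Kdr and Tek groups overlap.

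The ligand Vegfa was about 2-fold higher in OIR. With scrambled RNA its level was 226, 198 and 176 TPM in sham and 494, 436 and 336 TPM in OIR. With the mimic it was 219, 154 and 155 TPM in sham and 369, 328 and 318 TPM in OIR. All 6 OIR libraries lay above all 6 sham libraries, and the library without tags, OIR scrambled replicate 3, was the lowest of its group. The group means were 200 ± 25.0 and 422 ± 79.9 TPM with scrambled RNA, a ratio of 2.11, and 176 ± 37.4 and 338 ± 27.1 TPM with the mimic, a ratio of 1.92 (SD, n = 3 each). On the log2(TPM + 1) scale used for all tests, the difference was 1.06 with scrambled RNA (SE 0.16, limma adjusted p = 0.0034) and 0.96 with the mimic (SE 0.16, limma adjusted p = 0.00257). Averaged over both injections it was 1.01 (95% interval 0.757 to 1.26, limma adjusted p = 0.000122), and 97.7% of tested genes had a smaller value. In bulk tissue such as this, fewer cells of a type and less RNA per cell cannot be told apart, and the same holds for more.

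Kdr, the signalling receptor of VEGF-A, was higher in OIR by a smaller margin, and its test passed with the mimic and on average. Its sham levels were 186, 173 and 149 TPM with scrambled RNA and 167, 153 and 143 TPM with the mimic. In OIR they were 197, 182 and 224 TPM with scrambled RNA and 218, 204 and 205 TPM with the mimic. A single crossing kept the 6 OIR libraries from lying above the 6 sham libraries: OIR scrambled replicate 2 fell below sham scrambled replicate 1, one of the same-number libraries. The ratio of means was 1.35 with the mimic (log2 difference 0.44, SE 0.095, limma adjusted p = 0.00864). With scrambled RNA the log2 difference was 0.24 (SE 0.095, limma adjusted p = 0.127), which did not pass. The average over both injections was 0.34 (SE 0.067, limma adjusted p = 0.00288).

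Flt1, the receptor that holds VEGF-A back, stood above sham in every OIR library. Sham levels were 12.03, 11.7 and 8.98 TPM with scrambled RNA and 11.6, 9.17 and 8.56 TPM with the mimic. OIR levels were 14.8, 14.8 and 15.7 TPM with scrambled RNA and 15.3, 12.8 and 14.9 TPM with the mimic. The narrowest gap was between OIR mimic replicate 2 and sham scrambled replicate 1. Averaged over both injections the mean rose from 10.4 ± 1.60 TPM for sham to 14.7 ± 0.999 TPM for OIR (SD over 6 libraries each), a ratio of 1.42 and a log2 difference of 0.48 (SE 0.095, limma adjusted p = 0.00294). Within one injection the call was less firm. With the mimic the log2 difference was 0.51 (SE 0.13, limma adjusted p = 0.0207), and the limma adjusted p was 0.0721 without sham mimic replicate 2, 0.0850 without sham mimic replicate 3, and 0.0631 or 0.0625 when OIR mimic replicate 1 or 3 was left out. It was 0.0533 with only the groups compared and 0.0726 without the untagged libraries. With scrambled RNA it was 0.44 (SE 0.13, limma adjusted p = 0.0577), which passed without sham mimic replicate 1 (0.0452) or OIR mimic replicate 2 (0.0474), libraries that enter only the shared spread. It also passed under median-ratio scaling (0.0371), quantile normalisation (0.0271), arrayWeights (0.0311) and voom (0.0103).

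Angpt2, the TIE2 ligand, was nearly the same in all sham libraries and spread widely in OIR. Its sham levels were 10.9, 11.9 and 11.7 TPM with scrambled RNA and 10.5, 11.2 and 11.6 TPM with the mimic. Its OIR levels were 28.2, 19.2 and 13.0 TPM with scrambled RNA and 15.4, 18.4 and 12.03 TPM with the mimic. The highest OIR value came from scrambled replicate 1, and the lowest, mimic replicate 3, was only just above the highest sham library. The coefficient of variation was 4.70% over the sham libraries and 33.2% over the OIR libraries. Averaged over both injections the log2 difference was 0.55 (SE 0.16, limma adjusted p = 0.0197), from means of 11.3 ± 0.532 and 17.7 ± 5.88 TPM (SD, n = 6 each). Without the same-number sham libraries the limma adjusted p was 0.0763, and under quantile normalisation it was 0.0519. With scrambled RNA alone the log2 difference was 0.69 (SE 0.22, limma adjusted p = 0.0674). Leaving out the lowest OIR library of that group, replicate 3, raised it to 0.96 (limma adjusted p = 0.0148), and leaving out the highest, replicate 1, lowered it to 0.43. With the mimic the log2 difference was 0.41 (SE 0.22, limma adjusted p = 0.232).

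Tek, the gene of the TIE2 receptor, showed no difference past the threshold. Its sham levels were 8.20, 8.39 and 8.43 TPM with scrambled RNA and 7.77, 7.57 and 8.05 TPM with the mimic. In OIR it was at 8.55, 6.70 and 6.56 TPM with scrambled RNA and 6.43, 6.53 and 9.91 TPM with the mimic. The SD was 0.342 TPM over the sham and 1.45 TPM over the OIR libraries: 4 of the 6 OIR libraries lay below all sham libraries and the other two above them. The averaged log2 difference was -0.12 (95% interval -0.355 to 0.120, limma adjusted p = 0.453).

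Adm differed most. With scrambled RNA the vasodilator gene was at 5.11, 3.97 and 2.66 TPM in sham and at 25.7, 29.8 and 24.5 TPM in OIR. With the mimic it was at 3.35, 2.79 and 2.37 TPM in sham and at 24.8, 24.9 and 21.1 TPM in OIR. The groups lay far apart, with the lowest OIR library over 4 times the highest sham library. The ratio of means was 6.81 for scrambled RNA and 8.31 for the mimic. The log2 difference was 2.52 with scrambled RNA (SE 0.18, limma adjusted p = 0.000145) and 2.68 with the mimic (SE 0.18, limma adjusted p = 5.74e-05). Averaged over both injections it was 2.60 (95% interval 2.33 to 2.87, limma adjusted p = 2.61e-06). Adding 1 to the TPM pulls in a gene this low in sham: with 0.1 added instead the averaged value was 2.90. Adm had the smallest p of all 15916 tested genes in each of these 3 comparisons, and 13 genes had a larger averaged fold change.

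**Figure D2:**
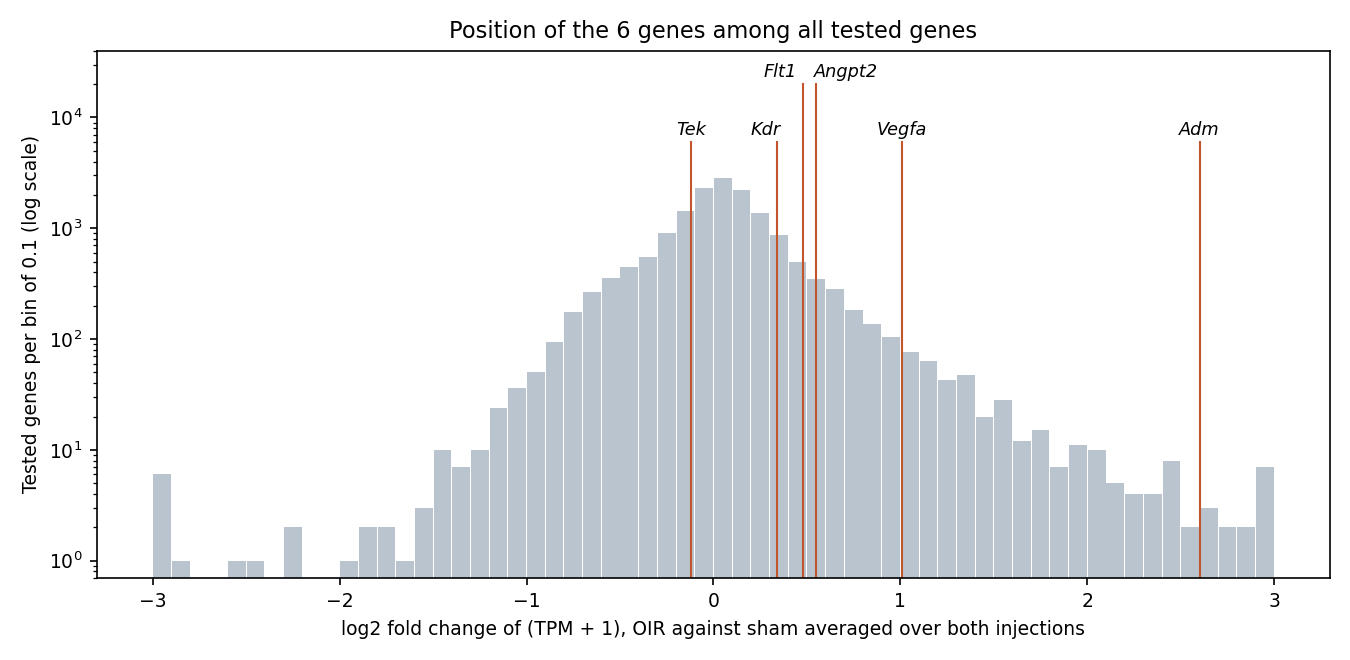
Number of tested genes (vertical axis, log scale) by log2 fold change of OIR against sham averaged over both injections (horizontal axis, bins of 0.1), with lines at the 6 genes. The outermost bins also hold the 9 genes beyond the drawn range, and Adm at 2.60 and Vegfa at 1.01 lie far to the right of the bulk.

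The same-number sham libraries were each the highest sham library of their group for Vegfa, Kdr, Flt1 and Adm and the lowest for Angpt2. Without both, Vegfa, Kdr, Flt1 and Adm still passed the averaged test. Their deviations from the group means correlated across genes at r = 0.258, the highest of 18 pairs of libraries with the same replicate number. The part of that number in the levels was not tested.

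Counted over the set, 2 of 6 genes passed with scrambled RNA (Vegfa and Adm), both higher in OIR, where 6.79% of all tested genes passed as higher. That share rests on 1081 genes, which fell to 625, 531 and 709 without sham scrambled replicate 1, 2 and 3 in turn and to 580 without OIR scrambled replicate 3. With the mimic 4 of 6 passed as higher (Vegfa, Kdr, Flt1 and Adm), beside 9.76% of all tested genes. The 1553 genes behind this share fell to 890 without sham mimic replicate 3 and 997 without sham mimic replicate 2, and rose to 3236 with arrayWeights. Averaged over both injections 5 of 6 passed as higher, all but Tek, beside 17.5% of all tested genes. The median log2 difference of the 6 genes was 0.57, 0.47 and 0.51 in these comparisons, and that of all tested genes 0.05, 0.04 and 0.04. Groups did not overlap, with OIR above sham, for 4 of 6 genes with scrambled RNA (19.7% of all tested genes), 5 of 6 with the mimic (20.1%) and 4 of 6 over both injections (9.78%). The set was chosen with earlier results of these data known, so its counts are a description. Over the whole table the averaged comparison had 2783 higher and 2030 lower genes, which became 2373 and 2531 under median-ratio scaling. With scrambled RNA the counts were 1081 and 623, which became 978 and 976.

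**Figure D3:**
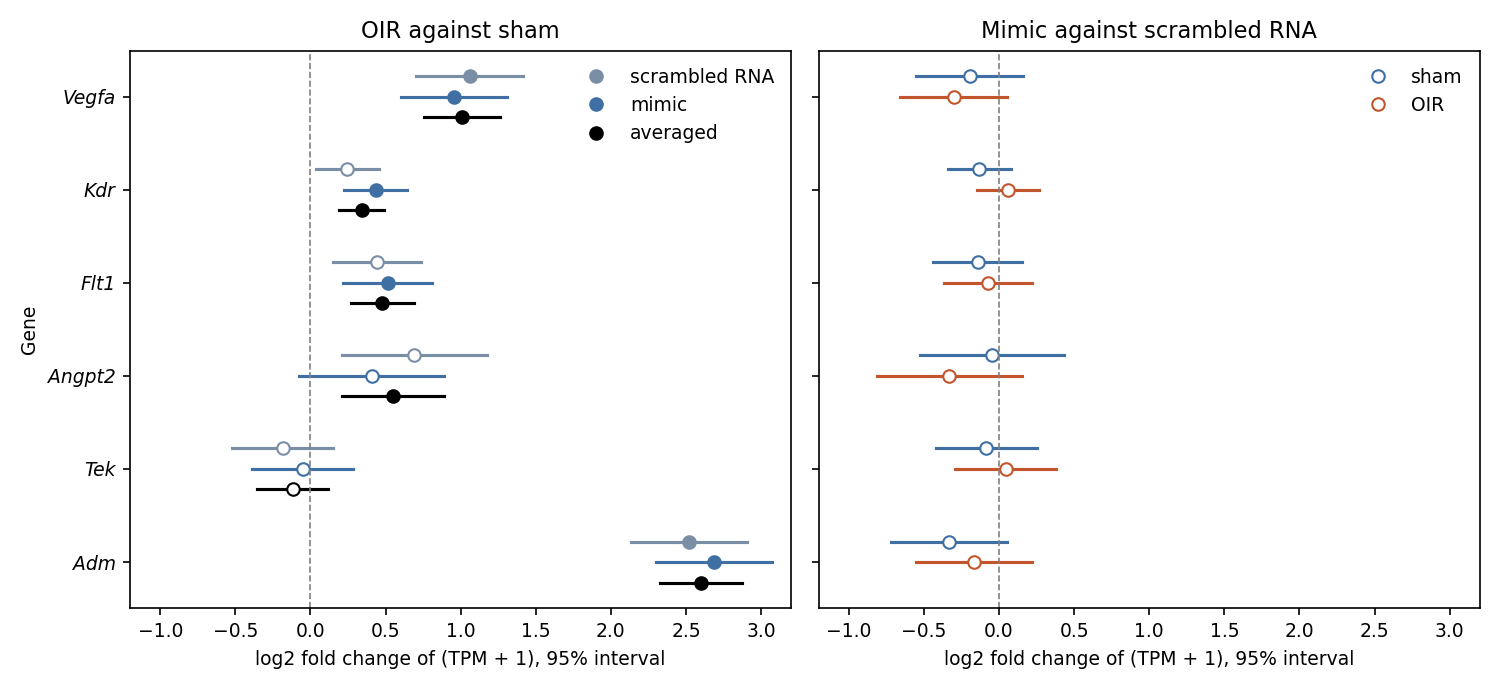
Log2 fold changes of (TPM + 1) with 95% intervals (horizontal axis) for the 6 genes (vertical axis), OIR against sham on the left and mimic against scrambled RNA on the right. Filled points have a limma adjusted p below the threshold of 0.05 and open points do not: all points on the right are open, and on the left Adm stands near 2.60.

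The mimic was compared with scrambled RNA within OIR and within sham, the question in the series title being the role of miR-143. None of the 6 genes passed in either (0 of 6 each), nor did any of the tested genes (0.0% in each, limma). Before adjustment, p was below 0.05 for 1491 genes in OIR and 333 in sham, of which 0 were among the 6. After adjustment voom on the recovered reads also gave 0 genes in both. With 0.1 added to the TPM 1 gene passed in OIR and 2 in sham, and with arrayWeights 1 passed in each. The sham count before adjustment was 3226 with arrayWeights. Without the untagged libraries 28 genes passed in OIR. Of the 6 genes, 0 passed either comparison in any setting run. In OIR the means with the mimic were 0.802 of those with scrambled RNA for Vegfa and 0.759 for Angpt2. Their log2 differences were -0.30 (95% interval -0.658 to 0.0536, limma adjusted p = 0.595) and -0.33 (95% interval -0.813 to 0.151, limma adjusted p = 0.676). The intervals of both ligands include 0, and for all 6 genes the mimic and scrambled groups overlapped in OIR, where 12.6% of all tested genes did not overlap in one direction or the other. The receptors sat nearer to 0, at 0.06 for Kdr (95% interval -0.148 to 0.269), -0.07 for Flt1 (-0.368 to 0.223) and 0.04 for Tek (-0.291 to 0.381). Adm was at -0.17 (95% interval -0.555 to 0.216).

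In sham the log2 difference between mimic and scrambled RNA was negative for all 6 genes, from -0.33 for Adm (95% interval -0.719 to 0.0517) to -0.05 for Angpt2 (-0.529 to 0.436), and the Angpt2 value turned to 0.0036 under quantile normalisation. Vegfa was at -0.20 (-0.552 to 0.160), Kdr at -0.13 (-0.339 to 0.0786), Flt1 at -0.14 (-0.438 to 0.152) and Tek at -0.09 (-0.422 to 0.250). These intervals rest on a spread shared by all 4 groups and not on the sham libraries alone. The SD over sham and OIR libraries was 0.342 and 1.45 TPM for Tek, and 0.532 and 5.88 TPM for Angpt2. Tek was the single gene whose groups did not overlap, lower with the mimic, as were 3.92% of all tested genes. The test of whether OIR changed these genes differently with the mimic, an interaction, was passed by 0 of 6 and by 0.0% of the tested genes (limma). It had 589 genes at an unadjusted p below 0.05, none of the 6 among them. After adjustment voom gave 0 genes, and 2 genes passed with 0.1 added to the TPM, with 0 of the 6 in either. The interaction was 0.19 for Kdr (95% interval -0.104 to 0.486), -0.28 for Angpt2 (-0.967 to 0.398) and -0.11 for Vegfa (-0.609 to 0.397). The Kdr call with the mimic and its absence with scrambled RNA are therefore not shown to differ.

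Ratios of (TPM + 1) within a library set each ligand beside its receptor. These ratios were chosen with earlier results of these data known, which their p-values do not take into account. The added 1 keeps the scale of a library from cancelling fully for genes of low level: with 0.1 added instead, the differences between OIR and sham were 0.67 for Vegfa to Kdr, 0.72 for Angpt2 to Tek and 0.17 for Flt1 to Kdr. The log2 ratio of Vegfa to Kdr was 0.282, 0.192 and 0.236 in sham with scrambled RNA and 0.388, 0.0118 and 0.113 in sham with the mimic. In OIR it was 1.32, 1.26 and 0.586 with scrambled RNA and 0.757, 0.685 and 0.631 with the mimic. The ligand thus gained on its receptor in all 6 OIR libraries, with no overlap. The difference was 0.67, with p = 0.005 in an exact permutation test within injections, two-sided, the smallest p this design can give, and an adjusted p of 0.015 over the 3 ratios. Within one injection an exact test of 3 against 3 cannot go below 0.1.

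The log2 ratio of Angpt2 to Tek averaged 0.441 ± 0.0527 over the sham libraries and 1.11 ± 0.485 over the OIR libraries (SD, 6 each). In OIR 5 of 6 libraries, from 0.886 to 1.61, lay above the highest sham value of 0.512, and OIR mimic replicate 3, at 0.257, lay below the lowest sham value of 0.368. That library had the lowest Angpt2 and the highest Tek of the OIR libraries. The difference was 0.67 (exact permutation p = 0.02, adjusted p = 0.03). The adjusted exact permutation p was 0.06 without sham scrambled replicate 1 or 3, and 0.0525 without sham mimic replicate 2 or 3 or OIR mimic replicate 1. The log2 ratio of the receptors Flt1 and Kdr moved little, from -3.85 ± 0.0789 for sham to -3.71 ± 0.119 for OIR (SD over 6 libraries each), with overlap. Its difference was 0.14 (exact permutation p = 0.03, adjusted p = 0.03). The adjusted exact permutation p rose to 0.065 and 0.08 without sham scrambled replicate 1 and 3, 0.085 when sham mimic replicate 2 or 3 or OIR mimic replicate 3 was left out, 0.06 when OIR scrambled replicate 2 was, and 0.07 when OIR mimic replicate 1 was.

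**Figure D4:**
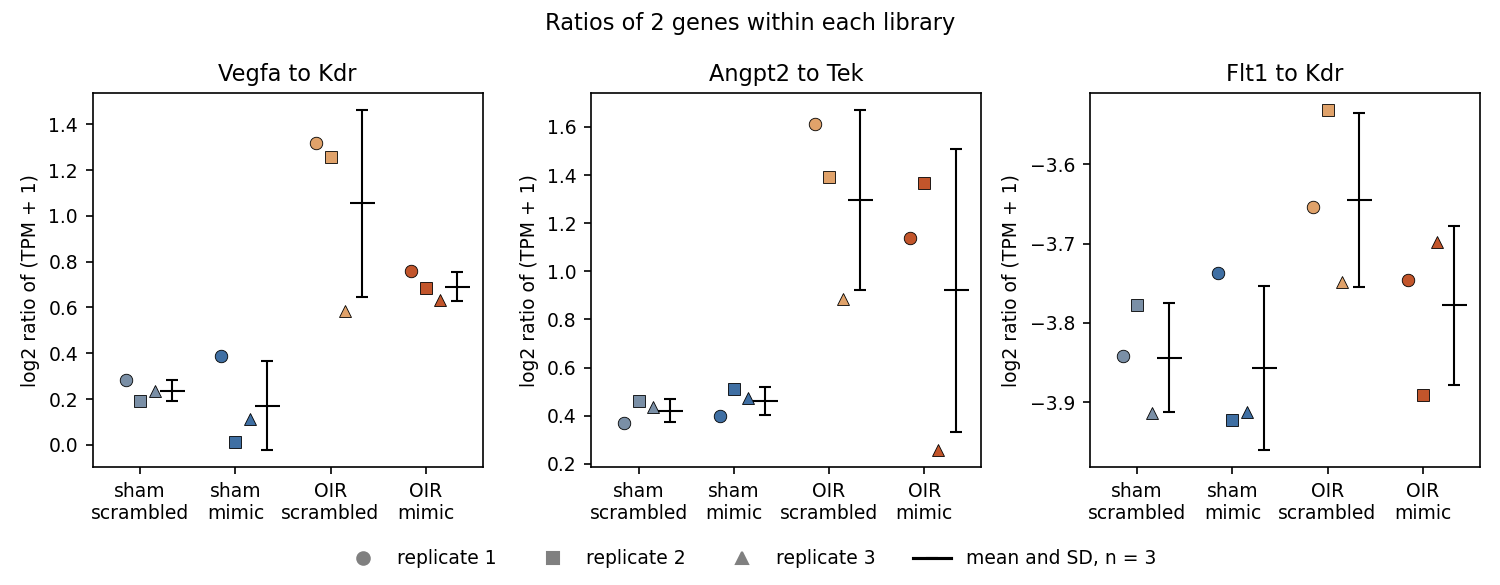
Log2 ratio of (TPM + 1) between gene pairs in each library (vertical axis) by group (horizontal axis), with bars for the mean and SD of 3 libraries. Vegfa to Kdr is higher in every OIR library, and for Angpt2 to Tek 1 OIR mimic library lies below all sham libraries.

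Genes whose level ran alongside each of the 6 were counted by Pearson's r of log2(TPM + 1) over the 12 libraries, among 12053 genes with a mean of at least 5 TPM. The difference between OIR and sham enters this measure, so it is a description. An r of at least 0.9 was reached by 343 genes for Adm, 276 for Flt1, 161 for Kdr and 131 for Vegfa, but by 3 for Angpt2 and 1 for Tek. All 343 genes near Adm passed as higher in OIR in the averaged comparison, beside 17.5% of all tested genes. Since Adm itself lay so far apart between OIR and sham, this follows from how those genes were chosen. The closest gene of all was ENSRNOG00000000565 to Flt1 (r = 0.991), with 55.5 ± 8.15 TPM over sham and 75.3 ± 5.34 TPM over OIR libraries (SD, 6 each). The closest to Adm was ENSRNOG00000011411 (r = 0.984), with 7.0 ± 0.814 and 15.1 ± 1.62 TPM. With the group means taken out, r was 0.9755 for the gene near Flt1 and 0.7048 for the gene near Adm. Both were singled out after their values were seen, and no symbol was paired with them.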

How the data were processed

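The authors deposited 1 table of TPM values for 32883 Ensembl genes in 12 columns, all assigned to samples through the sample titles. Build rn6, TopHat, Cufflinks, Cuffdiff and FastQC are listed, with no role, in the submitters' processing notes, and the labels' protocols speak of miRNA libraries although the table lists genes. Which tool counted the reads is not stated there. The 6 genes, the ratios and the rules were chosen with earlier results of these data known. Symbols come with the identifiers of the set: the RefSeq table (GRCr8, 47357 genes) holds 0 Ensembl identifiers, so the symbols were not checked, and other pathway genes and cell type markers, the check of the tissue among them, are not analysed here. Whole reads were recovered from the TPM steps for 22310 of 22310 rows above 0 (tolerance 0.0005). Log2(TPM + 1) of 15916 genes was modelled in R 4.3.3 by limma 3.58.1 (eBayes with trend and robust, 4 group means, 8 residual degrees of freedom), with Benjamini-Hochberg adjustment over all tested genes within each comparison and a threshold of 0.05. This scale shrinks the fold changes of low genes. The 3 ratios were tested by exact permutation of OIR and sham within injections. All 6 genes are named, and other genes only by the rule of highest r. The scripts were tested on simulated data. Promoters are given for Vegfa, Kdr and Flt1, and those of the other genes are not reported here.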

Additional observations from a re-analysis of the deposited data

How the results depend on the processing

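Of 888 values of the 6 genes under other settings, 855 kept their direction and side of the threshold, 9 gained a call, 8 lost one and 16 changed sign. Leaving out a library that is not in a comparison changes only its p and not its fold change. The direction of part of these values was therefore fixed in advance. Vegfa and Adm passed all OIR comparisons in each setting run, with averaged log2 differences of 0.947 to 1.14 and 2.50 to 2.94, and Kdr and Flt1 passed the averaged one in all. With arrayWeights 4 of 6 genes passed for scrambled RNA, Flt1 and Angpt2 among them. Leaving out 1 library gave 2 to 3.

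Sign changes, all of values short of the threshold, were as follows. Quantile normalisation gave Flt1 with the mimic in OIR 0.0195 and Angpt2 with the mimic in sham 0.0036. For Tek in OIR with the mimic, arrayWeights gave 0.123 and leaving out the untagged libraries 0.0430. Over the settings without 1 library each, values of the interaction ran from -0.0075 to 0.362 for Adm, -0.261 to 0.0613 for Vegfa, -0.0109 to 0.193 for Flt1 and -0.0505 to 0.239 for Tek. For the mimic in OIR they ran from -0.0081 to 0.140 for Kdr, -0.137 to 0.153 for Tek and -0.120 to 0.0011 for Flt1, and for Tek in OIR with the mimic from -0.234 to 0.0430.

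The OIR minus sham log2 ratio Angpt2 to Tek was 0.715 without the untagged libraries, 0.875 with scrambled RNA only and 0.460 with mimic only. It was 0.638 without the same-number sham libraries (chosen after seeing the data) and 0.556 to 0.833 without 1 library each. For Flt1 to Kdr it was 0.157, 0.199 and 0.0787 in the first of these and 0.110 to 0.169 without 1 library each. For Vegfa to Kdr it was 0.817 with scrambled RNA only and 0.520 with mimic only. Apart from some settings without 1 library, these values missed the threshold, and fewer libraries allow fewer permutations.

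Over the whole table, OIR against sham with scrambled RNA had 1704 genes, against 3322 with arrayWeights, 931 without the untagged libraries, 735 without the sham libraries that share a number and 806 to 2175 without 1 library each, with 915, 806 and 1088 without sham scrambled replicate 1, 2 and 3 and 846 without OIR scrambled replicate 3. With the mimic it had 3108, against 5270 with arrayWeights, 2168 without the sham libraries that share a number, and 2041 to 3278 without 1 library each, the lowest without sham mimic replicate 3 and the next, 2076, without sham mimic replicate 2. The mimic in OIR had 28 genes without the untagged libraries and 25 without OIR mimic replicate 1, with 0 of the 6 in either. The cause was not tested. Of 18 correlations between libraries with the same replicate number, 5 exceeded 0.1, the highest (0.258) between the sham libraries that share a column number. Correlations between libraries with different replicate numbers were not computed, so whether these numbers pair the libraries is not settled. With a replicate block 2, 4, 5, 0, 0 and 0 of the 6 genes passed, as without it. Low read numbers limit Adm in sham, and 3 libraries per group limit the mimic comparisons.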
